A study of Mus musculus with 6 samples.

Results

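The insulin-like growth factor (IGF) binding proteins Igfbp2 to Igfbp7 were examined together with the ligands Igf1 and Igf2 and the receptor Igf1r in retinal RNA of mice. These 9 genes were chosen by gene symbol out of 23420 genes in the count table, and all 9 were found there. RNA-seq had been performed on 6 libraries, 2 in each of 3 groups. The control group received no treatment, the light group was exposed to 10000 lux for 1 h and analysed after 4 days, and the light plus minocycline group had the same exposure and interval with minocycline, a tetracycline derivative, injected intraperitoneally at 45 mg/kg every day for 4 days. The labels give the strain CD1 for all groups, whereas the study's methods describe BALB/cJ mice of both sexes aged 10 to 14 weeks, so the strain is uncertain. The light intensity and the dosing are uncertain too, since the methods give a higher intensity and a first injection before the exposure. The study calls the libraries of a group biological replicates, but the number of animals behind each is not given in the sources used here, and p-values measure the spread between these libraries. The labels name no injection for the other groups. Both minocycline libraries carry one and the same column header, so the letters A and B only tell them apart.

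IGF-I and IGF-II are small growth factors related to insulin that signal through the receptor tyrosine kinase encoded by Igf1r. In extracellular fluid most of the ligand is held by the binding proteins, which prolong its lifetime, keep it from the receptor or deliver it to the cell surface, and proteases that cut the binding proteins set it free. In nervous tissue, activated microglia are a known source of Igf1, and binding proteins are made by glia, vessels and connective tissue. Igfbp7 binds IGFs with low affinity and is often counted as a related protein.

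The libraries held between 15205930 and 22856922 counts, so that 3 counts in a library equal 0.131 to 0.214 CPM, the counts scaled to a common library size by TMM, the trimmed mean of M values. Microglia and macrophage markers summed to 40.2 to 48.5 CPM in control, 378 to 1206 CPM in light and 38.7 to 90.3 CPM in minocycline libraries. Rod markers, which define most of the retina, summed to 73105 to 93336 CPM in control, 38715 to 54721 CPM in light and 79842 to 85458 CPM in minocycline libraries. Summed markers of stroma, smooth muscle, pigment cells and corneal epithelium were high in the minocycline libraries, as given below. Control 1 stood apart with 77778 Xist counts against 25 to 188 in the other 5 libraries, and the female library and the replicate cannot be told apart. In bulk RNA, fewer cells of a type and less RNA per cell cannot be told apart.

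The members lie on 6 chromosomes (GRCm38.p6). Igf1 is at chr10:87858265-87937047 on the plus strand, Igf2 at chr7:142650768-142666816 on the minus strand and Igf1r at chr7:67952257-68233668 on the plus strand. Igfbp2 (chr1:72824480-72852474, plus strand) and Igfbp5 (chr1:72858065-72874865, minus strand) are neighbours that face each other across 5590 bp. Igfbp3 (chr11:7206086-7215498, minus strand) lies 3539 bp from Igfbp1, which is no member of the set. Igfbp4 is at chr11:99040005-99052655 on the plus strand, Igfbp6 at chr15:102144186-102149512 on the plus strand and Igfbp7 at chr5:77349240-77408045 on the minus strand. All 9 are protein-coding genes.

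Igfbp3 to Igfbp7 had their highest levels in both minocycline libraries, Igfbp4 by a narrow margin, and the 200 bases before their annotated starts (RefSeq, GRCm38.p6) are shown for that reason, 5′ to 3′ on the strand of the gene. The windows are chr11:7213924-7214123, chr11:99041044-99041243, chr1:72874866-72875065, chr15:102143986-102144185 and chr5:77408046-77408245, in the order printed. Those of Igfbp3 and Igfbp4 lie inside the gene spans given above, before an annotated start that is not the outermost 5′ end of the gene. Capitals mark every match, on either strand, to the TATA box TATAAA, the GC box GGGCGG, the CCAAT box CCAAT, the AP-1 site TGANTCA or the E-box CANNTG.
Igfbp3: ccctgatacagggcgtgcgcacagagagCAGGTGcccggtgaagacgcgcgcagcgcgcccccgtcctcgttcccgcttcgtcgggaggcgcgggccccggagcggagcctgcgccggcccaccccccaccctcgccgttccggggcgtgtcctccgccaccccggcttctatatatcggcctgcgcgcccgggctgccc
Igfbp4: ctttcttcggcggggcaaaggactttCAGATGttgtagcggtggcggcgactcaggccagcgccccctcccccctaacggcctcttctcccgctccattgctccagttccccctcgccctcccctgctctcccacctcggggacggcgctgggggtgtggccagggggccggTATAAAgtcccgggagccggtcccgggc
Igfbp5: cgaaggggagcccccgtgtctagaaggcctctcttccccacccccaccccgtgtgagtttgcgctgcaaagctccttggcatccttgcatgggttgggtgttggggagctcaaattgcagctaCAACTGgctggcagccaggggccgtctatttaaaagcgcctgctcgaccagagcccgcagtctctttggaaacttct
Igfbp6: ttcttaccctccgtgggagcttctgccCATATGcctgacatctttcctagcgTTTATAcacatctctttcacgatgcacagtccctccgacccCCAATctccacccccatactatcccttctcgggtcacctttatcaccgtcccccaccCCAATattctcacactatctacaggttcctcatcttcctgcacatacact
Igfbp7: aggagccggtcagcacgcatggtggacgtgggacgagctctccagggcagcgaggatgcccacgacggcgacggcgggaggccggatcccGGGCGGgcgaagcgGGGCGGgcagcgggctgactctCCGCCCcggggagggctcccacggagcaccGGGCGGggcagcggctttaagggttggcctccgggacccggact
These 5 windows did not share one of the searched motifs. The window of Igfbp7 held 4 GC boxes and had a GC content of 75.5%, that of Igfbp3 had 76.0% with 1 E-box, that of Igfbp4 69.5% with 1 TATA box and 1 E-box, that of Igfbp5 59% with 1 E-box, and that of Igfbp6 51.0% with 1 TATA box, 2 CCAAT boxes and 1 E-box. Among 32851 promoter windows of the same length, 31.0% held the GC box, 58.2% the E-box, 29.3% the CCAAT box, 10.0% the TATA box and 5.5% the AP-1 site, and the median GC content was 53.0%. A match is a description of the letters and not a site of binding.

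Per length, the receptor transcript had the highest mean level of the 9 and the highest level in 5 of 6 libraries, the exception being minocycline B, where Igfbp7 had 22.5 and Igf1r 18.1 CPM per kb. Igf1r had 15.9 to 23.5 CPM per kb of exon over the 6 libraries, above the range of 6.99 to 12.2 CPM per kb for Igf2. Igfbp2 (5.14 to 15.1 CPM per kb), Igfbp7 (4.13 to 22.5 CPM per kb) and Igfbp5 (4.16 to 13.6 CPM per kb) followed by mean level, and these 3 overlapped with one another and with Igf2. Igf1 came next with 1.55 to 8.01 CPM per kb and Igfbp4 with 1.46 to 3.48 CPM per kb, again with overlapping ranges. Igfbp6 (0.126 to 0.865 CPM per kb) and Igfbp3 (0.135 to 0.699 CPM per kb) were below all other members in every library. Levels were compared between genes only on this scale, and values below are CPM of one gene across libraries.

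**Figure D1:**
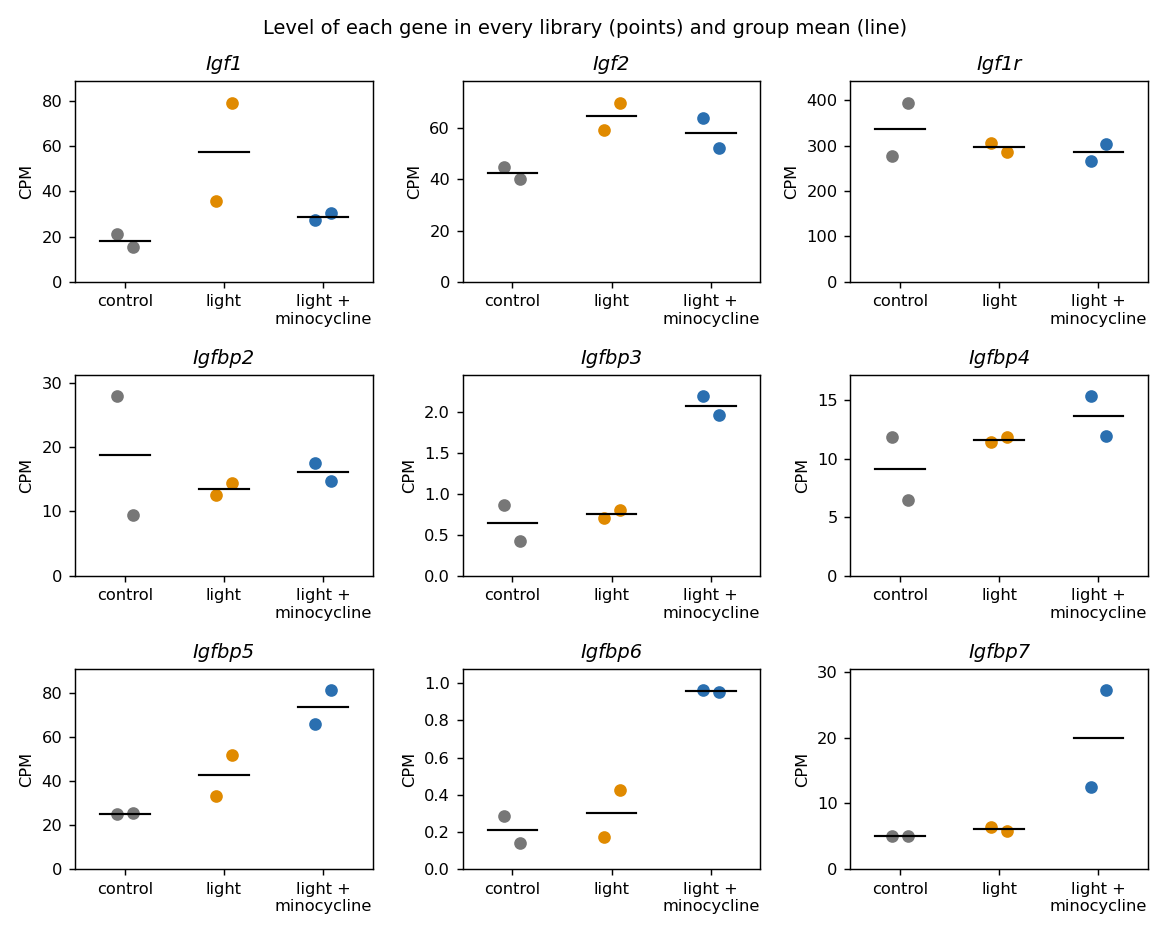
Level of each member in CPM (vertical axes, each from 0) in the 2 libraries of each group (points) with the group mean (line). Igf1 reached 35.6 and 79.3 CPM in the light libraries, and Igfbp3 to Igfbp7 were higher in both minocycline libraries than in any of the other 4 libraries, Igfbp4 by a narrow margin (11.95 against 11.8 CPM).

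The comparison of light with control addressed which genes of the IGF system differed 4 days after light exposure. Igf2 rose 1.54-fold and Igfbp5 rose 1.70-fold, and these were the members that passed the test, 2 of 8 tested. Of all 14349 genes tested, 7.52% passed in the higher direction and 3.8% in the lower direction (edgeR, quasi-likelihood F test, Benjamini-Hochberg adjusted p under 0.05 over all genes tested). Under the study's additional cutoff of a log2 fold change of at least 2, no member passed, against 2.89% of all genes in the higher direction and 0.0279% in the lower. Igfbp6 was too low to be tested here.

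Igf1, the ligand that microglia and other cells secrete, had 20.98 CPM in control 1, 15.3 CPM in control 2, 35.6 CPM in light 1 and 79.3 CPM in light 2. Both light libraries were above both controls, and light 2 had 1674 counts against 612 counts in light 1. The fitted log2 fold change was 1.68 ± 0.45 (SE), which is 3.19-fold, and did not pass (adjusted p = 0.0914, edgeR). Igf1 passed with edgeR without robust estimation (adjusted p = 0.0189), with DESeq2 (7.84e-06), with the total library size in place of TMM (0.0457) and in one fit over all 6 libraries (0.0431). It also passed without light 1 (2.98e-08) and without light 2 (0.0151), where the log2 fold change was 2.14 and 0.98. It did not pass in the other 7 fits tried (adjusted p = 0.0872 to 0.443), which include those without control 1 (0.287) and without control 2 (0.443). The 13 microglia and macrophage markers were all higher in both light libraries than in both controls, their sum was 1206 CPM in light 2 and 378 CPM in light 1, and their part in the Igf1 values was not tested.

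Igf2, the second ligand, had 44.8 CPM in control 1, 40.0 CPM in control 2, 59.5 CPM in light 1 and 70.0 CPM in light 2. The groups did not overlap, and the log2 fold change was 0.62 ± 0.15 (SE; adjusted p = 0.0302, edgeR). Without control 1, control 2 or light 2 the adjusted p was 0.0695, 0.133 and 0.339. Reads of Igf2 and of the antisense transcript Igf2as, which overlaps it and had 8 to 23 counts, may not be separable because the use of strand in counting is not given in the sources used here. Igf1r, the receptor, had 277 and 395 CPM in control 1 and control 2 and 306 and 286 CPM in light 1 and light 2. The light values lay between the control values, and the log2 fold change was -0.17 ± 0.19 (adjusted p = 0.593), turning to 0.06 when the total library size replaced TMM.

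Igfbp5, a binding protein that also attaches to extracellular matrix, had 25.0 CPM in control 1, 25.6 CPM in control 2, 33.5 CPM in light 1 and 51.9 CPM in light 2. Both light libraries were above the closely matched controls, and the log2 fold change was 0.77 ± 0.21 (SE; adjusted p = 0.0426, edgeR). The value fell to 0.42 ± 0.25 without light 2 (adjusted p = 0.520), and the adjusted p was 0.189 without control 1, 0.224 without control 2, 0.0504 with DESeq2 size factors and 0.0599 in one fit over all 6 libraries. Summed markers of glia and vessels were higher in the same light libraries as Igfbp5 and Igf2, and their part in these results was not tested. The 8 Müller glia markers summed to 1969 to 2950 CPM in control and 3614 to 4886 CPM in light, with 7 of 8 not overlapping. The 7 reactive glia markers summed to 150.001 to 192 and 602 to 805 CPM, with 7 of 7 not overlapping. The 8 endothelial markers summed to 183 to 214 and 276 to 359 CPM, with 3 of 8 not overlapping. Of all genes tested, 30.9% were higher in light without overlap. The endothelial sum was made up mostly of Kdr (197 and 253 CPM in light), while Cdh5, Cldn5 and Tie1 overlapped between the groups. Igfbp2, the binding protein typical of the central nervous system and the neighbour of Igfbp5, had 27.9 CPM in control 1, 9.49 CPM in control 2, 12.5 CPM in light 1 and 14.4 CPM in light 2. Control 1 was the highest of all 6 libraries and control 2 the lowest, and the log2 fold change of -0.46 ± 0.52 (adjusted p = 0.614) turned to 0.50 ± 0.27 without control 1. Igfbp4, an inhibitor of IGF action, had 11.8 and 6.47 CPM in the controls and 11.4 and 11.8 CPM in the light libraries (log2 fold change 0.36 ± 0.30, adjusted p = 0.465).

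Igfbp7 had 4.995 CPM in control 1, 5.13 CPM in control 2, 6.46 CPM in light 1 and 5.88 CPM in light 2, which is a log2 fold change of 0.29 ± 0.30 (adjusted p = 0.552). The groups did not overlap but lay close together. Igfbp3, the main carrier of IGFs in serum, had 12 and 6 counts in control 1 and control 2 and 12 and 17 counts in light 1 and light 2, with a log2 fold change of 0.25 ± 0.54 (adjusted p = 0.793). Igfbp6, which prefers IGF-II, had 4 and 2 counts in the controls and 3 and 9 counts in the light libraries. These were too few to pass the filter on low counts, so no difference was tested in the reported fit. Igf1, Igf2, Igfbp5 and Igfbp7 did not overlap between the groups and were higher in light, against 30.9% of all genes tested. Igfbp3, whose groups overlapped, passed the filter on low counts here only through the light libraries.

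**Figure D2:**
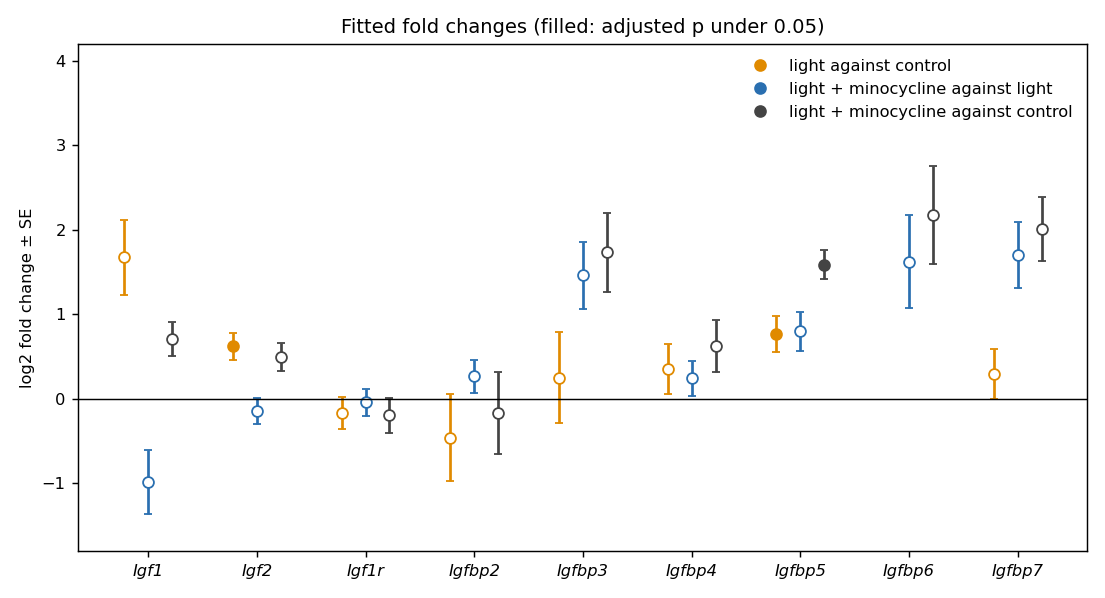
Fitted log2 fold changes of the 9 members (points) with their SE (bars) in the 3 comparisons, filled where the adjusted p was under 0.05. Filled points are Igf2 and Igfbp5 in light against control and Igfbp5 in light plus minocycline against control, and Igfbp6 has no point in light against control because it was not tested.

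The comparison of light plus minocycline with light addressed which of these genes differed with the drug among exposed retinas. No member passed, 0 of 9 tested, where 0.0542% of 14750 genes passed in either direction (edgeR). An unadjusted p under 0.05 was found for Igf1, Igfbp3, Igfbp5 and Igfbp7 among the 8 members other than Igfbp6, and for 21.1% of all genes tested. With DESeq2, which called 1197 genes (8.12%), Igfbp7 and Igfbp5 passed in the higher direction and Igf1 in the lower. Igfbp2, Igfbp3, Igfbp4, Igfbp5 and Igfbp7 had higher values in both minocycline libraries than in both light libraries, against 27.4% of all genes tested, while Igf1 was the only member with the reverse order, against 27.2%. Igfbp6 was also higher in both, but passed the filter on low counts only through the minocycline libraries.

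Igfbp7 had 12.5 CPM in minocycline A and 27.2 CPM in minocycline B, against 6.46 and 5.88 CPM in light 1 and light 2. The 2 minocycline libraries were above the light libraries but differed from each other by more than the light libraries did. The log2 fold change was 1.70 ± 0.39 (SE), or 3.26-fold (adjusted p = 0.0905, edgeR), with 2.17 ± 0.24 without minocycline A (adjusted p = 0.00997) and 1.02 ± 0.30 without minocycline B (0.211). Igfbp5 had 65.9 CPM in minocycline A and 81.5 CPM in minocycline B, against 33.5 and 51.9 CPM in the light libraries (log2 fold change 0.80 ± 0.23, adjusted p = 0.129). The lower minocycline value of Igfbp5 was above the higher light value. With DESeq2 the adjusted p was 0.00110 for Igfbp7 and 0.0271 for Igfbp5, and in one fit over all 6 libraries it was 0.0441 for Igfbp7, which did not pass in the other 9 fits tried (0.0579 to 0.622).

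Igfbp3 had 50 and 37 counts in minocycline A and minocycline B, or 2.19 and 1.96 CPM, against 0.699 and 0.806 CPM in light 1 and light 2. Both minocycline values were similar and above both light values, with a log2 fold change of 1.46 ± 0.40 (SE; adjusted p = 0.109). Igfbp6 had 22 and 18 counts, or 0.962 and 0.952 CPM, against 3 and 9 counts in the light libraries (log2 fold change 1.62 ± 0.55, adjusted p = 0.158). Igfbp2 had 17.5 and 14.8 CPM against 12.5 and 14.4 CPM, and Igfbp4 had 15.3 and 11.95 CPM against 11.4 and 11.8 CPM. These differences were small, with log2 fold changes of 0.27 ± 0.20 for Igfbp2 (adjusted p = 0.483) and 0.24 ± 0.21 for Igfbp4 (adjusted p = 0.571).

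Igf1 had 27.2 CPM in minocycline A and 30.4 CPM in minocycline B, below light 1 with 35.6 CPM and light 2 with 79.3 CPM. The log2 fold change was -0.99 ± 0.38 (SE; adjusted p = 0.224, edgeR), and -0.32 without light 2, the library with the highest microglia markers. It was -1.46 ± 0.19 without light 1, where it passed (adjusted p = 0.00639), as it did with DESeq2 (0.0445) and in none of the other 10 fits tried (0.158 to 0.787). Igf2 had 64.1 and 52.3 CPM in the minocycline libraries and Igf1r 267 and 304 CPM, and both genes overlapped with their light values (log2 fold changes -0.14 ± 0.15 and -0.04 ± 0.16, adjusted p = 0.636 and 0.913).

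The summed markers of 4 tissues around the retina and its vessels were high in the same libraries as Igfbp3, Igfbp5, Igfbp6 and Igfbp7. Igfbp4 was higher there only by a narrow margin, and Igfbp2 was highest in control 1 with 27.9 CPM. The 8 markers of fibroblasts and stroma, such as Dcn and Lum, summed to 16.7 to 21.6 CPM in control, 19.2 to 22.6 CPM in light and 52.9 to 184 CPM in minocycline libraries, with 8 of 8 fitted above 0 on the log2 scale in light plus minocycline against light. The 8 markers of pericytes and smooth muscle summed to 34.1 to 43.9, 46.9 to 58.9 and 103 to 354 CPM, with 5 of 8 fitted above 0. Within that list the contractile genes Acta2, Tagln, Myh11 and Cnn1 were higher in both minocycline libraries than in any other, whereas the pericyte markers Pdgfrb (9.71 and 10.4 CPM against 9.84 and 12.2 CPM in light), Rgs5 (26.1 and 21.2 against 23.2 and 24.9 CPM) and Cspg4 (1.22 and 1.43 against 4.43 and 12.4 CPM) were not. Kcnj8, also a pericyte marker, overlapped with light (1.36 and 1.11 against 1.16 and 0.569 CPM) but was above both controls (0.571 and 0.422 CPM). The 6 pigment cell markers summed to 27.5 to 83.8, 37.9 to 55.7 and 319 to 1405 CPM, with 6 of 6 fitted above 0. The 8 markers of corneal and conjunctival epithelium summed to 2.18 to 10.6, 6.35 to 15.7 and 199 to 287 CPM, with 7 of 7 tested fitted above 0. The 5 markers of ciliary body and iris summed to 67.3 to 70.4, 76.0 to 120.1 and 60.04 to 69.5 CPM, a sum made up mostly of Col9a1, while 3 of the 4 tested, Optc, Wfdc1 and Zic1, were higher in both minocycline libraries than in any other. The 7 markers of retinal pigment epithelium summed to 141 to 352, 147 to 199 and 112 to 179 CPM, with 2 of 6 tested fitted above 0. Lum was at 3 counts or fewer in both control libraries, as were Krt14, Dsg1a and the smooth muscle marker Cnn1 in the control and light libraries. Like Igfbp7 and Igfbp5, the stromal, smooth muscle, pigment cell and epithelial sums were higher in minocycline B than in minocycline A. Igfbp2, Igfbp3, Igfbp4 and Igfbp6 went the other way, Igfbp6 only slightly (0.962 CPM in minocycline A against 0.952 CPM in minocycline B). The part of these tissues in the levels of the binding proteins was not tested.

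**Figure D3:**
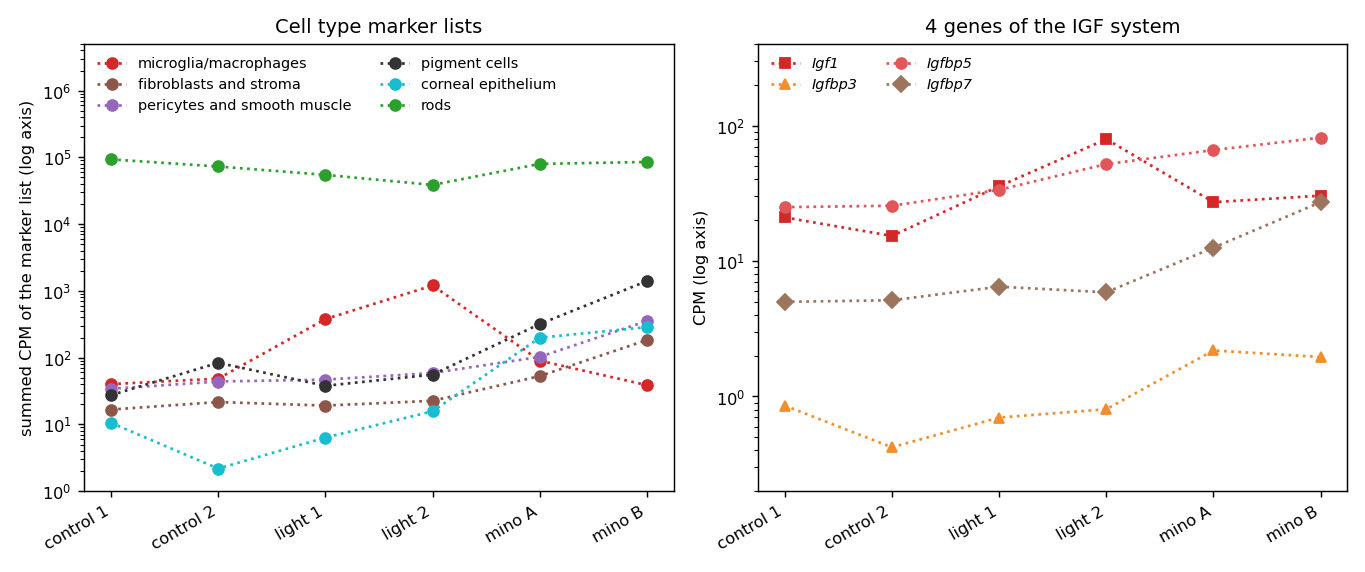
Summed CPM of 6 cell type marker lists (left) and CPM of Igf1, Igfbp3, Igfbp5 and Igfbp7 (right) in each library, both on log axes, where dotted lines only join the points of one list or gene. Microglia and macrophage markers were highest in light 2 with 1206 CPM, as was Igf1 with 79.3 CPM. In minocycline B these markers summed to 38.7 CPM, below both controls, while Igf1 had 30.4 CPM, above both controls. Pigment cell markers were highest in minocycline B with 1405 CPM, as was Igfbp7 with 27.2 CPM.

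The comparison of light plus minocycline with control addressed what differed from untreated retina in exposed and treated animals. Igfbp5 rose 3.003-fold and was the only member to pass, 1 of 9 tested, where 0.162% of 14181 genes passed in the higher direction and 0 in the lower direction (edgeR), against 994 genes with an unadjusted p under 0.05 and 168 genes passing with DESeq2. Its 65.9 and 81.5 CPM stood against 25.0 and 25.6 CPM in the controls, and its log2 fold change of 1.59 ± 0.17 (SE; adjusted p = 0.0366, edgeR) had the second smallest p of all genes tested (rank 2). The call was lost without control 1 (adjusted p = 0.106), without control 2 (0.0950) and in one fit over all 6 libraries (0.0736), with log2 fold changes of 1.56, 1.61 and 1.54. The comparison shares its libraries with the other 2, so its values are not independent of theirs.

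Igfbp7 had 12.5 and 27.2 CPM against 4.995 and 5.13 CPM in the controls, a log2 fold change of 2.01 ± 0.38 (SE), or 4.03-fold (adjusted p = 0.133, edgeR). It passed with DESeq2 (adjusted p = 8.33e-05) and without minocycline A (1.23e-11) or minocycline B (0.0135), with log2 fold changes of 2.46 and 1.31 in the last 2 cases, and without a filter on low counts (0.0143), but not in the other 8 fits tried (0.0951 to 0.99995), which include those without control 1 (0.448). Igfbp3 and Igfbp6 had log2 fold changes of 1.73 ± 0.47 and 2.18 ± 0.58 (adjusted p = 0.312 and 0.304), the latter on 4 and 2 control counts. Igfbp4 had 15.3 and 11.95 CPM against 11.8 and 6.47 CPM, so that minocycline B and control 1 were nearly level (log2 fold change 0.62 ± 0.31, adjusted p = 0.742). Igfbp2 overlapped between the groups, with a log2 fold change of -0.16 ± 0.49 that turned to 0.80 ± 0.29 without control 1.

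The ligands remained above control in both minocycline libraries without passing, Igf1 with a log2 fold change of 0.71 ± 0.20 (adjusted p = 0.355) and Igf2 with 0.50 ± 0.17 (adjusted p = 0.496). Igf1r did not (-0.19 ± 0.21, adjusted p = 0.788). Igf1, Igf2, Igfbp4, Igfbp5 and Igfbp7 were higher in both minocycline libraries than in both controls, against 20.7% of all genes tested. Igfbp3 and Igfbp6 were also higher in both, but each passed the filter on low counts in this comparison only through the minocycline libraries.

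**Figure D4:**
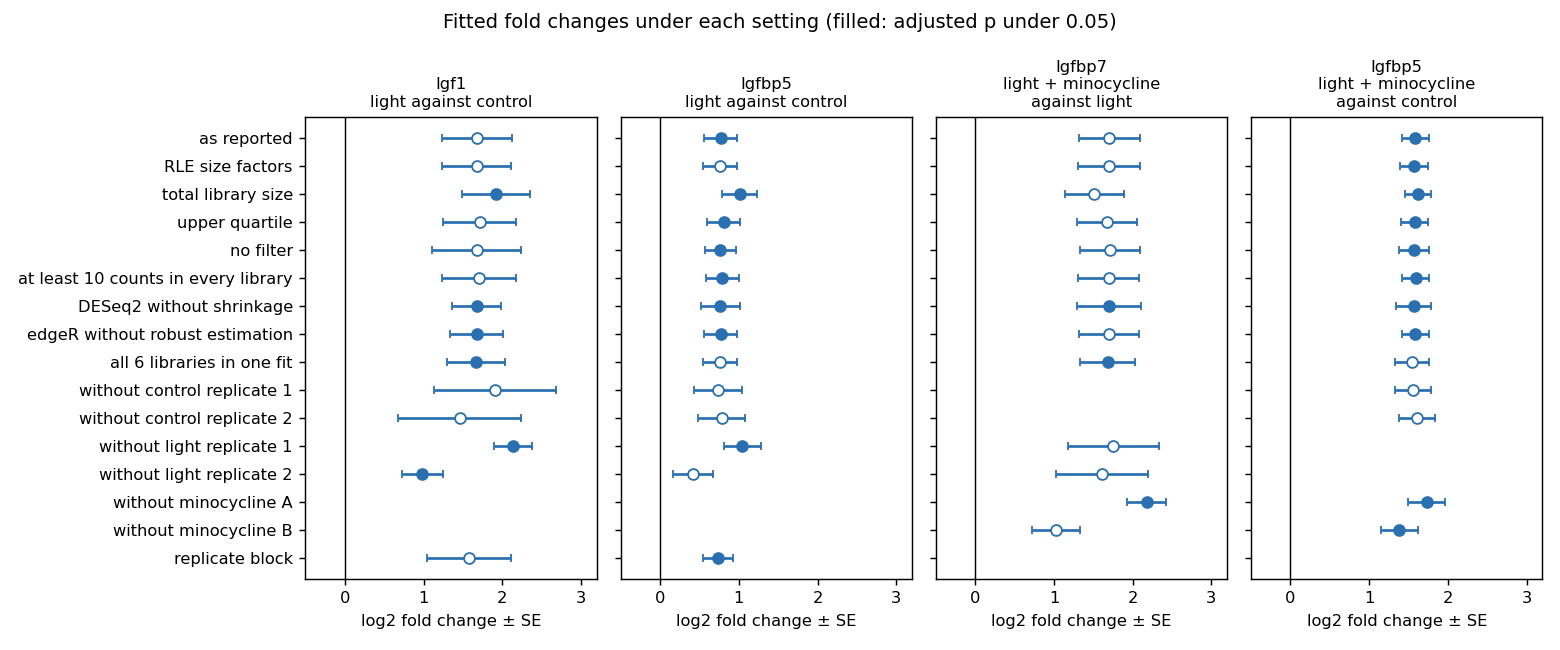
Fitted log2 fold change with its SE for Igf1 and Igfbp5 in light against control, Igfbp7 in light plus minocycline against light and Igfbp5 in light plus minocycline against control, under the reported fit (top) and each other setting, filled where the adjusted p was under 0.05. Every value is above 0, while Igfbp5 in light against control ranged from 0.42 without light 2 to 1.047 without light 1.

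The composition of the binding protein transcripts also differed between libraries. Per kb of exon, Igfbp2 to Igfbp7 summed to 26.6 and 15.4 CPM in control 1 and control 2, 20.7 and 24.6 CPM in light 1 and light 2, and 35.9 and 48.2 CPM in minocycline A and minocycline B. Igfbp2 made up 56.8% and 33.4% of the sum in the controls, 32.8% and 31.7% in the light libraries and 26.4% and 16.6% in the minocycline libraries. Its share was lower in each minocycline library than in any other, while its own level was within the range of the controls. Igfbp7 made up 15.5% and 27.6% in the controls, 25.9% and 19.7% in the light libraries and 28.9% and 46.6% in the minocycline libraries, so that it was the leading binding protein transcript in minocycline B. Igfbp5 made up 15.6% and 27.7%, 27.0% and 35.1%, and 30.6% and 28.1%. These shares were not tested.

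**Figure D5:**
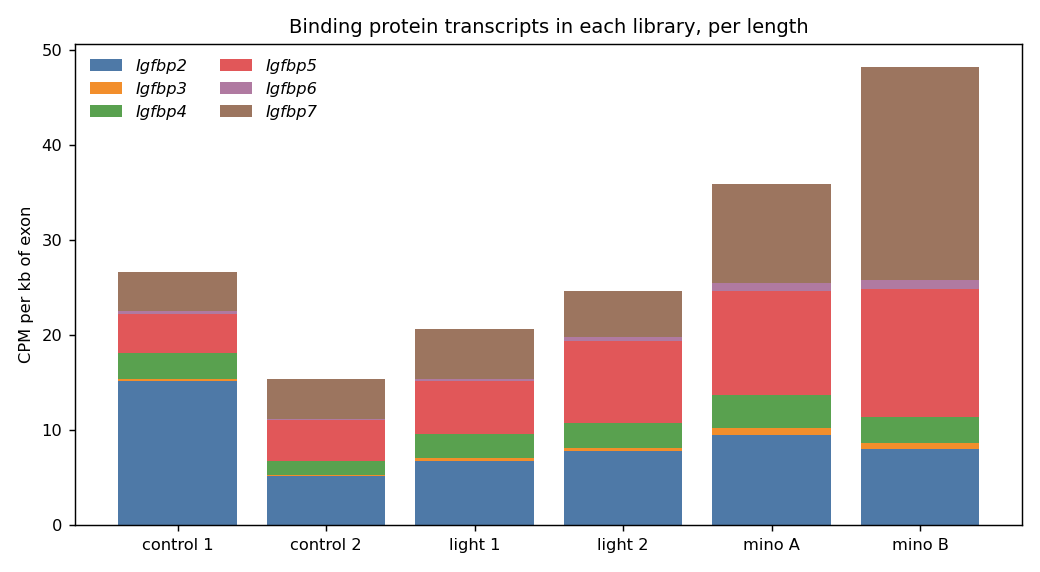
CPM per kb of exon of Igfbp2 to Igfbp7 stacked in each library. The sum was highest in minocycline B with 48.2 CPM per kb, of which Igfbp7 made up 46.6%, and in control 1 Igfbp2 made up 56.8%.

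Other genes of the pathway were counted over 51 genes in 5 lists. In light against control, 42 were tested, of which 2 rose and 1 fell, against 7.52% higher and 3.8% lower of all genes tested, so that these counts are near the background. The median log2 fold change was -0.07, against 0.00253 for all genes tested. Stc1, a secreted inhibitor of the protease PAPP-A that cuts Igfbp4, rose 3.04-fold, from 3.64 and 3.51 CPM to 7.51 and 14.1 CPM (log2 fold change 1.60 ± 0.35, adjusted p = 0.0210, edgeR). Htra1, a secreted serine protease that can cut binding proteins, rose 1.64-fold, from 43.1 and 47.9 CPM to 68.8 and 79.4 CPM (log2 fold change 0.71 ± 0.15, adjusted p = 0.0199). Both belong to the list of proteases and their inhibitors, in which 2 of 5 tested genes passed.

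Irs2, an adaptor that links the IGF and insulin receptors to PI3 kinase, fell from 34.5 and 32.9 CPM to 22.8 and 20.4 CPM (log2 fold change -0.63 ± 0.17, adjusted p = 0.0381), the only one of 26 signalling genes to pass with edgeR. In all, 12 of the 26 signalling genes were lower in both light libraries than in both controls, against 29.9% of all genes tested. Another 4 of the 26 were higher in both, against 30.9% of all genes tested. No gene passed among 4 tested genes of the other ligands, receptors and carriers, 3 of the Igf2 RNA-binding proteins with H19, and 4 of the CCN and related proteins. In the minocycline libraries Stc1 had 6.47 and 4.34 CPM, Htra1 53.7 and 38.1 CPM and Irs2 31.0 and 40.7 CPM. All 3 genes had minocycline values on the control side of the light values, without passing against light (adjusted p = 0.194 for Stc1, 0.105 for Htra1 and 0.0942 for Irs2). No pathway gene passed in either minocycline comparison with edgeR, out of 43 tested in each. Against light, 8 of the 43 had an unadjusted p under 0.05, as had 21.1% of all genes, and 3 passed with DESeq2 (Ctgf, Htra1 and Irs2), as did 8.12% of all genes. Against control these numbers were 1 and 0, with 7.01% and 1.18% of all genes. In light against control, 8 of 42 pathway genes passed with DESeq2, as did 13.3% of all genes. Beside Stc1, Htra1 and Irs2 these were the signalling genes Pik3ca, Gsk3b, Foxo3 and Mtor and the CCN gene Wisp1, all with lower values in light, for which the edgeR fit gave log2 fold changes of -0.43 (Gsk3b) to -0.92 (Wisp1) and adjusted p = 0.0516 (Pik3ca) to 0.0868 (Gsk3b). Pik3ca, a catalytic subunit of PI3 kinase, had 227 and 229.8 CPM in control and 163 and 159 CPM in light.

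The insulin receptor Insr and the IGF-II clearance receptor Igf2r did not pass in any comparison. Insr had 191 ± 39.2 CPM in control, 159 ± 7.12 CPM in light and 156 ± 7.49 CPM in minocycline libraries (SD, n = 2), and Igf2r had 91.5 ± 17.7, 86.7 ± 7.58 and 71.9 ± 8.59 CPM. Igfbp1, the binding protein made mainly by liver, had 0.806 to 1.63 CPM over the 6 libraries and did not follow its neighbour Igfbp3 in the minocycline libraries, where it had 1.14 and 0.952 CPM.

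The genes nearest in pattern to each member were found as those with the smallest root mean square difference of log2 CPM, centred on the gene mean, over the 6 libraries among 13701 genes. Igf1 was nearest to Renbp (difference 0.100), Fli1 (0.120) and Gng12 (0.123). Renbp had 5.07 and 4.57 CPM in control, 9.20 and 20.2 CPM in light and 7.08 and 7.46 CPM in minocycline libraries, with its highest value in light 2 like Igf1. Igfbp5 was nearest to Ace (0.109), C1qtnf1 (0.145) and Rcn3 (0.164), and Ace had 2.64 and 2.67, 3.84 and 4.74, and 7.52 and 8.94 CPM.

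Igfbp7 was nearest to Hspb8 (0.190), Tgfbr3 (0.223) and Col17a1 (0.229), and Hspb8 had 4.00 and 4.36, 5.13 and 6.44, and 10.1 and 19.4 CPM. Each of these genes was highest in minocycline B, as Igfbp7 was. Igfbp3 was nearest to Gpr165 (0.145), Lgi2 (0.206) and Palmd (0.216), and Igfbp2 to Slc4a11 (0.169), Gm9833 (0.187) and Hes1 (0.190), all 3 with their highest value in control 1. Igf2 was nearest to Fam49a (0.0447), Cabp2 (0.0485) and Acvr1 (0.0616), Igfbp4 to Fxyd6 (0.0708), Tkt (0.0775) and Necab2 (0.0777), and Igf1r to Rbm20 (0.0247), A530058N18Rik (0.0282) and Uhrf1bp1 (0.0306). Igfbp6 was left out because its mean was under 1 CPM. The likeness over 6 libraries is a description, as all points share the same libraries and their depth.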

How the data were processed

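RNA of whole retinas was sequenced from stranded mRNA libraries. The authors aligned reads with STAR to mm10 (GRCm38) and deposited counts per gene. The study's data statement describes them as normalized with DESeq2, but the values are whole numbers whose own DESeq2 size factors range from 0.80 to 1.29, where values already so normalized would give about 1, and they were used as raw counts. Versions, annotation and strand use in counting are not given in the sources used here. Of 23420 genes, 4791 had 0 counts in every library. Reads were not analysed here.

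Each pair of groups was fitted on its own in edgeR 4.0.16 (R 4.3.3; low counts removed by filterByExpr, TMM, quasi-likelihood F test with robust estimation, Benjamini-Hochberg adjustment over all tested genes). CPM used TMM over all 6 libraries, and log2 CPM a prior count of 2. Exon lengths came from GENCODE and promoters from RefSeq, both for GRCm38.p6, and 9 of 9 members matched. The test was tried on simulated data.

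The members and lists were chosen with earlier results of these data known, so their p-values are rows of the fit across all genes and no independent support. Named are all members, pathway genes that passed with edgeR, Igfbp1, Insr, Igf2r and the 3 genes nearest in pattern. Pathway genes that passed only with DESeq2 were named after their values were seen. Alternatives were DESeq2 1.42.0, other scalings and filters, no robust estimation, one fit over the 6 libraries, a replicate block and leaving out each library. The other marker lists covered Müller and reactive glia, cones, inner neurons, endothelium, pigment epithelium, ciliary body and lens.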

Additional observations from a re-analysis of the deposited data

How the results depend on the processing

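With 2 libraries a group, the counts of passing genes moved more than the members' values. In light against control 1624 genes and 2 members passed; the numbers were 2525 and 2 with the replicate block, 419 and 0 with the fold cutoff, 1508 and 1 with DESeq2 size factors, 2063 and 3 with total library size (93.6% higher, against 66.4%), 1915 and 3 with DESeq2, 1547 and 3 without robust estimation, and 4 to 2145 and 0 to 3 with a library left out. In light plus minocycline against light 8 genes and 0 members passed; the numbers were 1197 and 3 with DESeq2, 732 and 0 without a filter, 488 and 1 in one fit of all 6 libraries, 15 and 0 without robust estimation, 2 and 0 with DESeq2 size factors or upper quartile, 0 and 0 with total library size, and 14 to 772 and 0 to 1 with a library left out. In light plus minocycline against control 23 genes and 1 member passed; the numbers were 168 and 2 with DESeq2, 187 and 2 without a filter, 0 and 0 in one fit, 3 and 1 with a minimum of 10 counts in each library, 19 and 0 with the fold cutoff, and 3 to 480 and 0 to 2 with a library left out. The causes were not tested.

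Some log2 fold changes near 0 changed sign, and the ranges given are those with a library left out. Igf1r in light against control turned to 0.063 with total library size, which moved the median of all genes to 0.24, and ranged from -0.42 to 0.11, the latter without control 2. Igfbp3 ranged from -0.18 to 0.82 and Igfbp4 from -0.021 to 0.84, negative without control 2, and Igfbp2 from -1.04 to 0.50, positive without control 1. In light plus minocycline against light, Igf1r ranged from -0.15 to 0.071, positive without minocycline A. In light plus minocycline against control, Igfbp2 ranged from -0.74 to 0.80, positive without control 1, and Igf1r from -0.44 to 0.096, positive without control 2. The members' other values also include group means of log2 CPM under a prior count of 0.5. In all, 306 stayed the same. For fold changes this meant the same direction and side of the threshold, for means a shift under the group SD. Another 16 fold changes passed only under the alternative and 11 only as reported, and 2 means moved by the SD or more.

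The replicate block used numbers shared by control and light libraries, whose deviations correlated at -0.0082 across genes, so no pairing is shown; Igf2 and Igfbp5 passed with it. No paired analysis was possible because of the missing replicate numbers in comparisons with minocycline libraries. A library left out leaves 1 in its group, assumed to vary like the other group. Depth limits Igfbp3 and Igfbp6, with 6 to 50 and 2 to 22 counts.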

Other observations

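Marker sums not given above follow. In the minocycline libraries, Müller glia markers summed to 2889 to 3816 CPM, reactive glia markers to 152 to 231 CPM and endothelial markers to 209 to 284 CPM. As the range over the 2 libraries of control, light and light plus minocycline, cone markers summed to 1428 to 1488, 1413 to 1841 and 1425 to 1570 CPM, and inner retinal neuron markers to 997 to 1125, 1266 to 1398 and 910.3 to 1429 CPM. Lens markers summed to 0.281 to 0.357, 0.190 to 183 and 1.85 to 17.4 CPM, with the highest sum in 1 light library.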
